A study of Mus musculus with 33 samples.

Results

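This is the day 8 comparison of the mouse embryonic stem (ES) cell clone ΔK9.1 with its wild-type parent line E14Tg2a, 3 libraries against 3, among the 33 RNA-seq libraries of the series. E14Tg2a cells, of strain 129/Ola, carry no engineered deletion. ΔK9.1 was made from them with CRISPR and lacks, on both alleles, the region between the enhancer and the promoter of *Nanog* where histone H3 is tri-methylated at lysine 9 (H3K9me3). ΔK9.1 is 1 clone, described by the study as karyotypically normal, and a second clone with the deletion, ΔK9.2, was grown beside it. All lines were kept in DMEM with FCS and LIF on gelatine, then grown as embryoid bodies (EBs) without LIF. Cells were taken on days 0, 4, 6 and 8, and per the study's methods the EBs were replated on gelatine after day 4. The question put to the data here is which genes, and of which lineages, differed in this clone at the end of the course.

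NANOG is a transcription factor of the naive epiblast and of ES cells, where it opposes the primitive endoderm programme driven by GATA6, GATA4 and SOX17. Primitive endoderm forms the outer layer of EBs and gives rise to parietal endoderm, which lays down a thick basement membrane, and to visceral endoderm. Visceral endoderm works for the early embryo much as liver, kidney tubule and gut do later: it secretes apolipoproteins and plasma carriers, takes up proteins through cubilin and amnionless at its apical surface, and degrades them in lysosomes. It also signals to the tissue beneath, where blood, endothelium and heart mesoderm form.

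Levels are TPM, transcript abundances scaled for transcript length and for the total of a library. Those listed for the 9 day 8 libraries summed to 996974 to 998266, and 13270 to 13795 genes stood at 1 TPM or more. The study gives an approximate read depth for its libraries, but the depth of each library cannot be read from TPM. On log2(TPM + 1) the libraries of E14Tg2a correlated with each other at 0.966 to 0.974 and those of ΔK9.1 at 0.950 to 0.975, against 0.914 to 0.972 between the lines. On the first principal component, with 43.9% of the variance, the E14Tg2a libraries lay at -22.4, -62.8 and -32.3 and those of ΔK9.1 at 15.7, -15.5 and 37.1 (replicates 1, 2 and 3), so replicate 2 of the clone lay nearest to the wild type. All 15 naive pluripotency genes stood at 1 TPM or more in every day 0 library of both lines, with summed levels of 2031 to 2117 TPM in E14Tg2a and 2360 to 2400 TPM in ΔK9.1. The 13 listed regulators of extra-embryonic endoderm summed on day 0 to 127, 13.4 and 17.8 TPM in E14Tg2a and to 15.8, 9.60 and 7.47 TPM in ΔK9.1, so day 0 replicate 1 of E14Tg2a stood apart. Tests that use day 0 are given with and without it for the counts and for *Nanog*, *Lama1*, *Dab2*, *Cubn* and the genes of opposite direction on the 2 days, and means and plots keep it. The values below are TPM of replicates 1, 2 and 3 in that order, and log2 fold changes are ΔK9.1 minus E14Tg2a on log2(TPM + 1), a scale that understates the change of low genes.

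*Nanog*, chromosome 6 from 122707489 to 122714633 on mm10, stood in E14Tg2a at 34.6, 23.7 and 21.96 TPM and in ΔK9.1 at 70.6, 49.3 and 177 TPM. The groups did not overlap, and replicate 3 of the clone was far above the other two. The log2 fold change was 1.66 (standard error 0.42), with an adjusted p of 0.0956 in limma, above the threshold of 0.05. Blocking on the replicate number gave 0.0273, and in the fit without replicate 2 of ΔK9.1 the change was 2.05 with an adjusted p of 0.0489. Of the 6 fits that left out 1 library, *Nanog* passed in that 1 only. With only the 6 libraries compared the adjusted p was 0.151, and with all 33 libraries it was 0.000297. On day 0 *Nanog* was higher in the clone by 0.44 (adjusted p = 0.00547), or by 0.41 (0.00747) without day 0 replicate 1 of E14Tg2a. The deletion lies outside the transcribed part of *Nanog*, so its level does not show the deletion itself.

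Of 14446 genes tested, 107 were lower in ΔK9.1 (0.741%) and 6 were higher (0.0415%), the thresholds being an adjusted p of 0.05 in limma and a log2 fold change of 1 in either direction. Counts of called genes below are read against these shares. An unadjusted p under 0.05 was found for 2674 genes (18.5%), the share against which counts at that level are read. The 3 ΔK9.1 libraries did not overlap those of E14Tg2a for any of these 113 genes, as also held for 11.9% of all genes in the lower and 10.7% in the higher direction. Blocking on the assay number, which links the lines, gave counts of 367 lower (2.54%) and 83 higher (0.575%), with all 107 and all 6 among them. The main fit also held the ΔK9.2 libraries, whose spread enters its p-values. With only the 6 libraries compared, 44 genes were lower and 1 higher, with 42 of the 107 and 1 of the 6 among them. The count of lower genes moved with single libraries. It was 24 without replicate 3 of E14Tg2a, 32 without its replicate 2, 23 without replicate 1 of ΔK9.1 and 35 without its replicate 3, and was 146 without replicate 1 of E14Tg2a and 148 without replicate 2 of ΔK9.1. The higher genes numbered 28, 1 and 0 without replicates 1, 2 and 3 of E14Tg2a, and 2, 12 and 3 without those of ΔK9.1. The call held in each of these 6 fits for 18 of the lower genes (*Apoc2*, *Rbp4*, *Apoa1*, *Apob*, *S100g*, *Lgals2*, *Amn*, *Lama1*, *Glipr1*, *Slc13a4*, *Spp2*, *Soat2*, *Ihh*, *Plac8*, *Hkdc1*, *Ctsc*, *Lgmn* and *Mttp*) and for none of the higher ones. The other 89 lower genes lost it in at least 1 fit. In 70 of the 107 lower genes replicate 2 was the highest of the 3 ΔK9.1 libraries. In bulk RNA fewer cells of a type and less RNA per cell cannot be told apart.

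**Figure D1:**
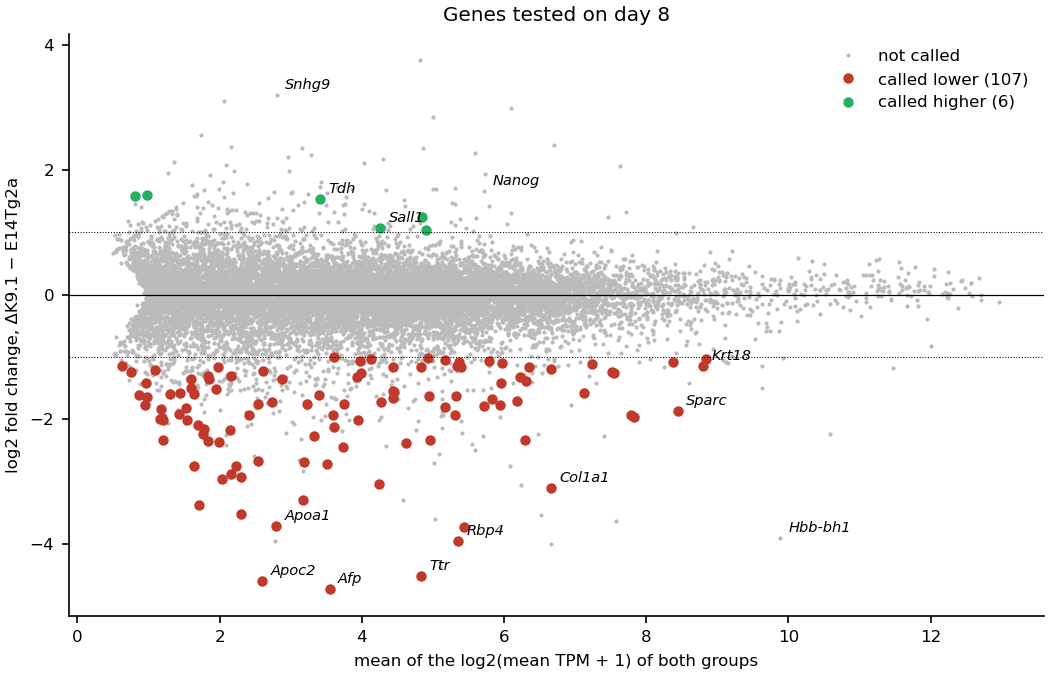
Each point is 1 of the 14446 genes tested on day 8. The x axis is the mean over both groups of log2(mean TPM + 1), the y axis is the log2 fold change of ΔK9.1 minus E14Tg2a, and dotted lines mark -1 and 1. The 107 genes called lower run down to -4.73 (*Afp*), while the 6 called higher end at 1.60 and *Nanog*, at 1.66, is not called.

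Of the groups of lower genes, those of lipoprotein assembly and lipid transport had the lowest median. In this group, put together after the calls were known, 8 genes were called lower with a median log2 fold change of -3.11, and 5 of them kept the call in all 6 fits. *Apoc2*, a cofactor of lipoprotein lipase, had 29.8, 40.7 and 17.9 TPM in E14Tg2a and 0, 0.198 and 0.411 TPM in ΔK9.1, a log2 fold change of -4.60 (SE 0.30, adjusted p = 0.000536). No library of the clone reached 1 TPM. *Apoa1*, the main protein of high-density lipoprotein, chromosome 9 from 46228580 to 46230466, stood at 37.3, 17.6 and 19.5 TPM against 0.687, 1.29 and 0.656 TPM (-3.72, adjusted p = 0.00349). For *Apob*, the scaffold of very-low-density lipoprotein, the wild type held 15.7, 22.01 and 9.76 TPM and the clone 0.161, 0.9903 and 0.167 TPM (-3.53, adjusted p = 0.00231). *Mttp*, the transfer protein that loads lipid onto apolipoprotein B, fell from 16.9, 19.98 and 15.4 TPM to 5.78, 5.66 and 3.75 TPM (-1.61, adjusted p = 0.00928). *Soat2*, which esterifies cholesterol for lipoproteins, fell from a mean of 6.33 ± 0.798 to 0.586 ± 0.447 TPM (SD, n = 3 each). The rest were *Apom* (-3.30), *Apoa2* (-2.92) and *Apoa4* (-1.99). In *Apom* the second clone library, at 5.94 TPM, was well above the other two, at 0.720 and 0.211 TPM.

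Plasma carriers, coagulation and other secreted proteins gave 11 lower genes with a median of -1.83, again a group formed after the calls were known. *Afp*, the fetal albumin-like carrier, had the lowest fold change of all genes called. Its 3 wild-type libraries ranged widely, at 129, 20.4 and 49.2 TPM, against 1.49, 0.275 and 1.33 TPM in the clone (-4.73, SE 0.79, adjusted p = 0.0286). *Ttr*, which carries thyroid hormone and binds retinol-binding protein, was at 114, 104 and 64.5 TPM in E14Tg2a. In ΔK9.1 it was at 1.12, 20.9 and 0.4002 TPM, with replicate 2 again the highest, and the change of -4.52 had an adjusted p of 0.0402. *Rbp4*, the retinol carrier itself, chromosome 19 from 38116629 to 38125281, was measured at 123, 195 and 143 TPM and at 7.23, 16.7 and 5.43 TPM (-3.95, adjusted p = 0.00201). Its wild-type mean, 154 ± 37.6 TPM (SD, n = 3), was the highest of the 18 genes that kept their call in all 6 fits. Of the coagulation genes, prothrombin (*F2*) had 4.51, 1.91 and 3.62 TPM against 0.333, 0.341 and 0.5003 TPM (-1.60, adjusted p = 0.0346). Fibrinogen beta (*Fgb*, -1.83), antiplasmin (*Serpinf2*, -1.64), *Habp2* (-1.59) and the tissue factor pathway inhibitor *Tfpi* (-1.65) were called too. *Spp2* was listed at 0 in all 3 clone libraries against 6.29, 3.80 and 2.67 TPM, so no fold change is given (adjusted p = 0.00563). *Igfbp1* and *Gpx3*, a secreted glutathione peroxidase, complete the group at -1.78 and -2.34.

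**Figure D2:**
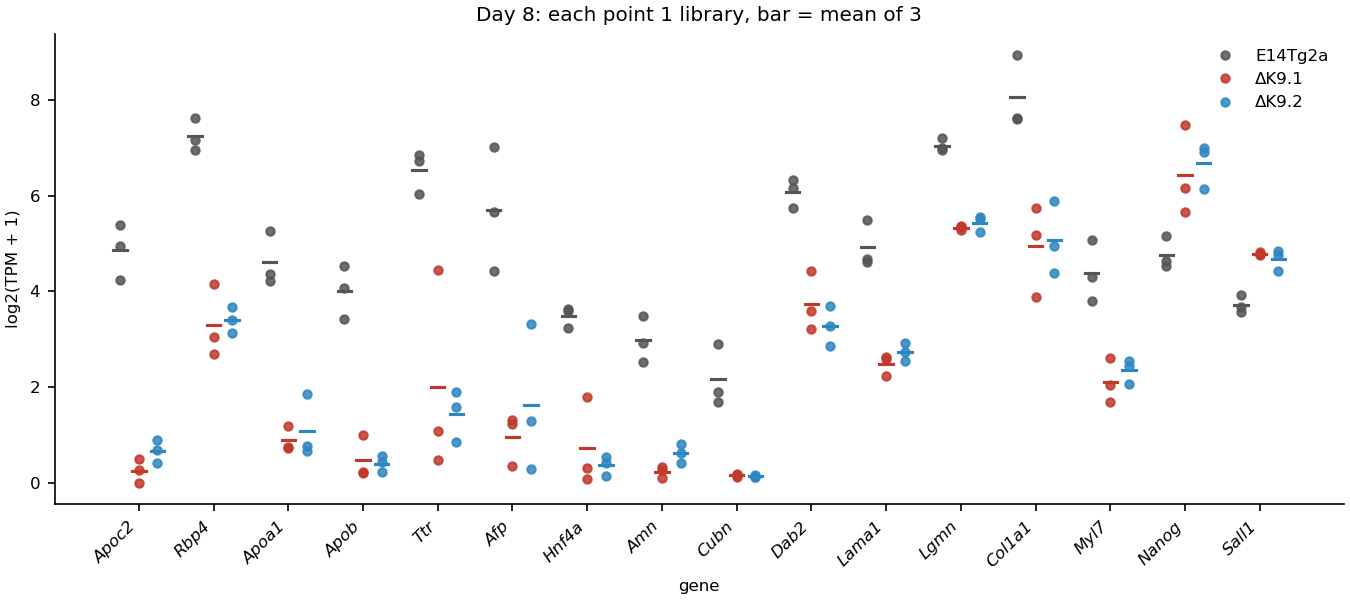
The y axis is log2(TPM + 1) on day 8 for 16 genes on the x axis, each point is 1 library and each bar the mean of 3 libraries of a line. For *Apoc2*, *Rbp4*, *Apoa1* and *Apob* every ΔK9.1 library lies below every E14Tg2a library, replicate 2 of ΔK9.1 is the high point for *Ttr* and *Hnf4a*, and *Nanog* and *Sall1* are higher in the clone.

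The bases before the starts of the called genes were searched for short motifs known from liver and endoderm promoters: AGATAA for GATA factors, GTTAAT as part of the HNF1 motif and CAAAGT as part of the HNF4 motif, on both strands, in the 250 bases before the RefSeq start. Sequences were found for 10484 of the genes tested and 87 of those called lower. AGATAA was present in 5.48% of all and 11.5% of the lower genes, GTTAAT in 3.57% and 10.3%, and CAAAGT in 9.96% and 10.3%. No match overlaps another in the windows printed here. A match is a string of letters, not a measured binding site, and the shares were not tested. The 4 promoters below, each with a match, are shown for *Afp* and *Apoc2*, which had the 2 largest changes, for *Lgals2*, whose window held all 3 motifs, and for *Hnf4a*, one of the regulators called. They are RefSeq sequences on GRCm38.p6, which has the coordinates of mm10, written 5′ to 3′ along the gene with matches in capitals.
*Afp* (chr5:90490464-90490713, plus strand): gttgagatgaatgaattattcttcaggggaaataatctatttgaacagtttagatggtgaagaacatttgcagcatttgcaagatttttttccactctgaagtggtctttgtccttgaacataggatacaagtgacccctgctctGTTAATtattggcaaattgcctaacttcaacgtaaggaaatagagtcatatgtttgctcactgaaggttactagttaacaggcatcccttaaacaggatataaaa
*Apoc2* (chr7:19677942-19678191, minus strand): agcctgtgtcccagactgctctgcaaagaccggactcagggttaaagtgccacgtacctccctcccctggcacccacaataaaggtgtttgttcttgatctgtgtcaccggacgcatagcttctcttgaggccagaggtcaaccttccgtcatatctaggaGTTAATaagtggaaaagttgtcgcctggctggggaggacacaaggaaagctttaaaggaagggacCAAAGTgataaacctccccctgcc
*Lgals2* (chr15:78855530-78855779, minus strand): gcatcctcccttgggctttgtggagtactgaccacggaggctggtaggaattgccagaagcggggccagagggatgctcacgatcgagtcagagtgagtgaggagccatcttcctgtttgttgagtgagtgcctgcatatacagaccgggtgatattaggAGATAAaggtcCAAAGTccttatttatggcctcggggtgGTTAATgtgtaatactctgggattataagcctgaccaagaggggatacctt
*Hnf4a* (chr2:163506607-163506856, plus strand): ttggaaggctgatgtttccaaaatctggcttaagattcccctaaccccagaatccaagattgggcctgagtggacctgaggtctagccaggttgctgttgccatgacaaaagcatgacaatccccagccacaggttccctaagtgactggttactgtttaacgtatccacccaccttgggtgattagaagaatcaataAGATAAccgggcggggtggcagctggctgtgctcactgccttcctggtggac
The *Afp* window holds 1 GTTAAT, that of *Apoc2* 1 GTTAAT and 1 CAAAGT, that of *Lgals2* 1 of each motif, and that of *Hnf4a* 1 AGATAA. These were picked after the matches were seen, *Rfx6* also held a GTTAAT, and the windows of *Apoa1*, *Apob*, *Rbp4* and *Amn* held none of the 3.

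Several genes of protein uptake were lower. Among genes of the endocytic receptor complex and the apical surface, 13 were called lower, with a median of -2.01, in a group formed after the calls. *Amn* (amnionless) and *Cubn* (cubilin) form the receptor that takes up vitamin B12 with intrinsic factor and many filtered proteins. *Amn* stood at 10.3, 4.72 and 6.62 TPM in E14Tg2a and at 0.0752, 0.253 and 0.211 TPM in ΔK9.1 (-2.74, adjusted p = 0.00328). *Cubn* stood at 6.48, 2.71 and 2.23 TPM and 0.129, 0.121 and 0.0889 TPM (-2.01, adjusted p = 0.0204), with the first wild-type library more than the sum of the other two. *Dab2*, the clathrin adaptor of these receptors, had 70.7, 79.4 and 52.2 TPM against 8.22, 20.4 and 11.02 TPM (-2.34, adjusted p = 0.0145). *Lrpap1*, the chaperone of LDL receptor family members, had a change of -1.39. *Lrp2* (megalin), the partner of cubilin, was not called, at 0.33 (adjusted p = 0.774).

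At the brush border, villin (*Vil1*) fell from a mean of 4.04 ± 0.472 TPM to 0.806 ± 0.352 TPM and the dipeptidyl peptidase *Dpp4* from 10.9 ± 4.38 to 0.674 ± 0.893 TPM (SD, n = 3 each). The water channel *Aqp8* had a change of -2.01 and the sulphate transporter *Slc13a4* of -2.35. *Clic6* was almost equal in the wild-type libraries, at 49.8, 49.3 and 49.3 TPM, and spread from 2.51 to 11.6 TPM in the clone (-3.05, adjusted p = 0.0116). Carbonic anhydrase 4 (*Car4*), the most abundant of the group, stood at 457, 313 and 563 TPM against 142, 66.6 and 139.6 TPM (-1.97, adjusted p = 0.0286). *Tmprss2*, *Klb* and *Podxl* were called at -2.12, -1.25 and -1.24. *S100g*, a calcium-binding protein of absorptive epithelia that belongs to none of the lists, was listed at 0 in every clone library, against 9.22, 6.53 and 13.5 TPM (adjusted p = 0.000634).

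The 4 lysosomal proteases called lower are described as a group formed after the calls. Legumain (*Lgmn*), with the smallest standard error of these, had 126, 145 and 123 TPM in E14Tg2a and 37.7, 40.3 and 39.7 TPM in ΔK9.1 (-1.71, SE 0.13, adjusted p = 0.000634). Cathepsin C (*Ctsc*), which activates serine proteases, stood at 23.8, 23 and 20.9 TPM and 5.64, 4.98 and 4.93 TPM (-1.93). Cathepsin H (*Ctsh*) had the largest change of the 4, from 129, 142 and 136 TPM to 7.26, 27.5 and 3.66 TPM (-3.72), and cathepsin L (*Ctsl*) the smallest (-1.08). Other cathepsins were not called: *Ctsb*, in the chromosome 14 segment described further on, was at -1.53 (adjusted p = 0.0689, 0.00255 with the block), *Ctsz* at -0.47, *Ctsd* at -0.41 and *Ctsa* at -0.33. In the list of lysosomal enzymes and membrane proteins 3 of 20 were called lower, 4 with the block, all 20 had a log2 fold change below 0, and the median was -0.42, beside a median of 0.0049 over all genes tested.

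Basement membrane genes gave 4 lower genes, again grouped after the calls. *Lama1*, the laminin alpha chain of the early embryo's basement membranes, had 43.9, 24.7 and 23.6 TPM in E14Tg2a and 3.73, 4.97 and 5.18 TPM in ΔK9.1 (-2.45, adjusted p = 0.00349). *Lamb1*, its beta chain partner, stood at 105, 129 and 114 TPM against 49.5, 54.5 and 35.5 TPM (-1.32, adjusted p = 0.0145). *Sparc*, a collagen-binding glycoprotein very abundant in parietal endoderm, had 555, 751 and 677 TPM and 156, 227 and 161 TPM (-1.87, adjusted p = 0.0111). The matricellular *Tinagl1* had a change of -1.93. Of the 14 genes listed for parietal endoderm and basement membrane, 3 were called lower, 13 had a change below 0 and the median was -1.10. With the replicate block 8 were called, *Lamc1* (adjusted p = 0.0108, unblocked 0.0695), *Col4a1* (0.0201, unblocked 0.102) and *Col4a2* (0.0112, unblocked 0.0658) among them.

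Among transcription regulators of endoderm, *Hnf4a*, *Rfx6* and *Cited1* were called lower. *Hnf4a*, a nuclear receptor that activates apolipoprotein genes, had 8.40, 11.4 and 11.03 TPM in E14Tg2a and 0.0644, 2.49 and 0.245 TPM in ΔK9.1 (-2.75, adjusted p = 0.0176). Replicate 2 of the clone, at 2.49 TPM, stood apart from the other two, both below 0.3 TPM. *Rfx6*, a winged-helix factor of gut endoderm, fell from a mean of 6.16 ± 1.67 to 0.636 ± 0.493 TPM (-2.15), and the coactivator *Cited1* from 72.8, 54.3 and 80.4 TPM to 27.2, 15.6 and 22.6 TPM (-1.63, adjusted p = 0.0116). *Ihh* (Indian hedgehog), which visceral endoderm sends to the underlying mesoderm, had 5.37, 5.39 and 6.09 TPM against 0.376, 1.12 and 0.278 TPM (-2.09, adjusted p = 0.00563).

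*Gata4* had 47.8, 73.6 and 67.4 TPM in the wild type and 18.3, 27.7 and 7.86 TPM in the clone (-1.89). Its adjusted p was 0.0571, and 0.0138 with the block. *Sox17* had 48.3, 35.7 and 43.1 TPM against 13.8, 26.7 and 4.59 TPM (-1.71, adjusted p = 0.117, 0.0431 with the block), and *Foxa2* had an adjusted p of 0.121 without the block and 0.0648 with it. In both the groups did not overlap, and replicate 2 of the clone was the highest. *Gata6* overlapped between groups, with a change of -1.55 (adjusted p = 0.168, 0.0403 with the block). Of the 13 genes listed as regulators of extra-embryonic endoderm, among which the list counts *Dab2* but not *Rfx6*, 3 were called lower (*Hnf4a*, *Cited1* and *Dab2*), or 7 with the block, 12 had a change below 0, and the median was -1.55. Their summed level ran from 351 to 420 TPM in E14Tg2a and from 74.1 to 197 TPM in ΔK9.1.

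Of 22 secreted proteins listed for visceral endoderm, 17 could be tested, 13 were called lower (16 with the block) and all 17 had a log2 fold change below 0, with a median of -3.30. Their summed level was 2099 to 2299 TPM in E14Tg2a and 642 to 997 TPM in ΔK9.1. Of 12 absorptive surface proteins 8 were tested and 5 were called lower, with a median of -1.75. None of the 10 tested genes of anterior visceral and definitive endoderm was called, a count that the share of 0.741% over all genes would also give, and 2 had an unadjusted p under 0.05 (18.5% of all genes). Of the 10, 5 had a change below 0, 2 lay lower without overlap (*Pyy* at -1.07 and *Sfrp5* at -0.87) and 1 higher, and the median was 0.30. There *Lefty1*, a Nodal antagonist, had 4.93, 1.79 and 2.15 TPM against 8.52, 13.7 and 22.1 TPM (1.99, adjusted p = 0.0549, 0.0237 with the block), and *Trh* had a change of 1.07 (adjusted p = 0.336). The lists were written with earlier results of these data known, so their direction is no independent evidence.

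Genes of heart, muscle and mesenchyme were lower in part. *Col1a1*, the main chain of type I collagen, had 197, 488 and 192 TPM in E14Tg2a and 35.4, 52.8 and 13.8 TPM in ΔK9.1 (-3.11, SE 0.54, adjusted p = 0.0346). *Myl7*, the atrial myosin light chain, stood at 12.9, 18.7 and 32.6 TPM and 2.24, 5.11 and 3.10 TPM (-2.27, adjusted p = 0.0201). *Ankrd1*, a muscle ankyrin repeat protein, had a change of -2.69 and the matrix metalloproteinase *Mmp14* of -1.78. Also in this group of 8 called genes were *Synpo*, *Fhl2*, *Pmp22* and *Gucy1b1*, and none of the 8 kept its call in all 6 fits that left out a library. In the lists, 1 of 23 heart genes and 1 of 26 smooth muscle and mesenchyme genes were called lower, with medians of -0.91 and -0.89. With the block the counts were 9 and 8, and *Tnnt2* (adjusted p = 0.016), *Nkx2-5* (0.045), *Postn* (0.004) and *Acta2* (0.0247) were among the added genes.

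Blood genes were far from even among libraries. Embryonic beta-like globin *Hbb-bh1* had 809, 3735 and 866 TPM in E14Tg2a and 18.5, 1439.5 and 26.7 TPM in ΔK9.1. Its change of -3.91 had a standard error of 1.81 and an adjusted p of 0.283, which became 0.0453 with the block. In both lines replicate 2 was by far the highest, and replicate 2 of the clone exceeded 2 of the wild-type libraries. *Hba-x*, the alpha-like globin of primitive red cells, followed it, at 169, 717 and 104 TPM against 3.73, 319 and 3.37 TPM (adjusted p = 0.283, 0.0388 with the block). No blood gene of 18 tested was called, though all 18 had a change below 0 (median -1.46). All overlapped between groups, 5 had an unadjusted p under 0.05 beside 18.5% of all genes, and 7 were called with the block. No endothelial gene of 18 was called either, 17 had a change below 0, 2 had an unadjusted p under 0.05 and the median was -0.83. *Tek* and *Cdh5*, a receptor and a junction protein of endothelium, had changes of -1.23 and -1.07, with adjusted p of 0.263 and 0.509, and *Tek* was called with the block (0.0466).

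Outside these groups and outside the chromosome 14 segment described further on, 37 genes were called lower. *Krt18*, a simple epithelial keratin, stood at 628, 650.3 and 703 TPM against 284, 334 and 279.9 TPM (-1.14, adjusted p = 0.0145). The glucose transporter *Slc2a1* had 684, 679 and 595 TPM and 321, 309.6 and 325 TPM (-1.03, adjusted p = 0.00563), while no other of the 21 tested glycolysis and hypoxia genes was called (median -0.030). *Lgals2*, a galectin of gut epithelium, had 9.61, 16.8 and 6.04 TPM against 0.387, 0.396 and 0.456 TPM (-2.96, adjusted p = 0.00515). *Plac8* fell from a mean of 30.02 ± 4.39 to 6.72 ± 1.05 TPM (-2.01). The X-linked neighbours *Xlr3a* (-2.17) and *Xlr3b* (-1.92) belong to a family of near-identical copies whose reads can be split between members, so their values are uncertain. The same holds for the copies *Tpt1-ps3* (-1.26) and *Sap18b* (-1.12), whose parent genes lie in the chromosome 14 segment.

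The higher direction held 6 genes. *Sall1*, a zinc finger factor of ES cells and kidney, had the smallest standard error, with 14.1, 11.7 and 10.9 TPM in E14Tg2a and 27.2, 26.1 and 26.6 TPM in ΔK9.1 (1.07, SE 0.16, adjusted p = 0.0182). *Cecr2*, a bromodomain subunit of a chromatin remodeller, had 23.1, 16.9 and 19.3 TPM against 48.6, 35.7 and 40.6 TPM (1.04, adjusted p = 0.0293). *Tdh*, threonine dehydrogenase, the enzyme that feeds threonine into one-carbon metabolism of mouse ES cells, stood at 5.37, 5.93 and 4.14 TPM and 11.6, 16.3 and 24.4 TPM (1.54, adjusted p = 0.0286). The peroxisomal hydrolase *Nudt19* rose by 1.24 (adjusted p = 0.0403). The other two are near the floor of detection. *Trav5-2*, a T cell receptor segment, had 0.382, 0 and 0 TPM against 3.59, 1.71 and 2.09 TPM (adjusted p = 0.0257), and *Gm12276*, a predicted gene, was listed at 0 in all E14Tg2a libraries against 1.17, 2.26 and 2.81 TPM, so no fold change is given (adjusted p = 0.022).

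Larger differences in this direction did not pass the test. *Snhg9*, a small nucleolar RNA host gene, had 1.07, 0 and 1.52 TPM in E14Tg2a and 26.9, 2.05 and 46.6 TPM in ΔK9.1 (3.20, adjusted p = 0.126, 0.0124 with the block). *Fgf5*, a growth factor of the formative epiblast, had 5.81, 0.387 and 1.52 TPM against 6.57, 7.13 and 50.8 TPM (2.36, adjusted p = 0.243). In *Eras*, *Cbr3* and *Ltb*, replicate 3 of the clone likewise stood far above the others, at 51.5, 38.7 and 133.6 TPM, with adjusted p of 0.185, 0.124 and 0.179. With the block these became 0.0401, 0.0355 and 0.0459. *Wnt8a* had a change of 2.09 (adjusted p = 0.155, 0.0162 with the block).

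None of the pluripotency genes was called higher, although most lay above the wild type. Of 15 naive pluripotency genes 5 had a change below 0. Without overlap between groups 9 lay higher and 1 lower. The median was 0.82, 8 had an unadjusted p under 0.05 and 5 were called higher with the block. *Zfp42* (REX1), a marker of naive cells, had 8.08, 14.5 and 7.99 TPM against 23.8, 30.3 and 52.8 TPM (1.68, adjusted p = 0.0788, 0.0192 with the block). *Klf2* had 5.86, 9.64 and 5.21 TPM against 15.7, 21.5 and 39.5 TPM (1.69, adjusted p = 0.0964, 0.0254 with the block). The summed level of this list was 94.9 to 133 TPM in E14Tg2a and 203 to 390 TPM in ΔK9.1. Among the genes below 0 was *Klf4*, at -0.89 (adjusted p = 0.1). Of 14 general pluripotency genes 13 had a change above 0, the median was 1.02, 8 had an unadjusted p under 0.05 and 5 were called with the block. *Sox2* had 22.7, 18.98 and 19.4 TPM against 38.9, 38.9 and 129.8 TPM (1.48, adjusted p = 0.159, 0.0367 with the block), and *Pou5f1* (OCT4) overlapped between groups, with a change of 1.32 (adjusted p = 0.203). The summed level of these was 688 to 843 TPM in the wild type and 1086 to 2018 TPM in the clone.

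For primitive streak and early mesoderm no gene of 21 was called, 5 had an unadjusted p under 0.05 beside 18.5% of all genes, the median was 0.69, and 4 were called higher with the block. Of these 21 genes 6 had a change below 0, *Hand1* (-1.41, adjusted p = 0.179) and *Bmp4* (-0.87, 0.213) lay lower without overlap, and 3 lay higher without overlap. *T* (brachyury), the streak factor, had 44.9, 1.46 and 4.09 TPM in E14Tg2a and 78.1, 30.3 and 29.7 TPM in ΔK9.1, with overlap between groups (2.35, adjusted p = 0.263, 0.0252 with the block). *Fgf8* had 51.5, 6.56 and 28.7 TPM against 112, 46.5 and 119.9 TPM (1.93, adjusted p = 0.157, 0.0195 with the block). The FGF-ERK list had a median of 0.60 over 22 genes, with 9 not overlapping in the higher and 3 in the lower direction and 15 at an unadjusted p under 0.05, and with the block 3 were called higher and 2 lower. The 3 receptors *Fgfr2* (-0.86, adjusted p = 0.0756), *Fgfr3* (-1.47, 0.108) and *Fgfr4* (-1.14, 0.0509) lay below the wild type without overlap, and the ERK feedback gene *Dusp6* above it (1.21, 0.0699). With the block the adjusted p was 0.0215 for *Fgfr3*, 0.0297 for *Fgfr4* and 0.00872 for *Dusp6*.

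**Figure D3:**
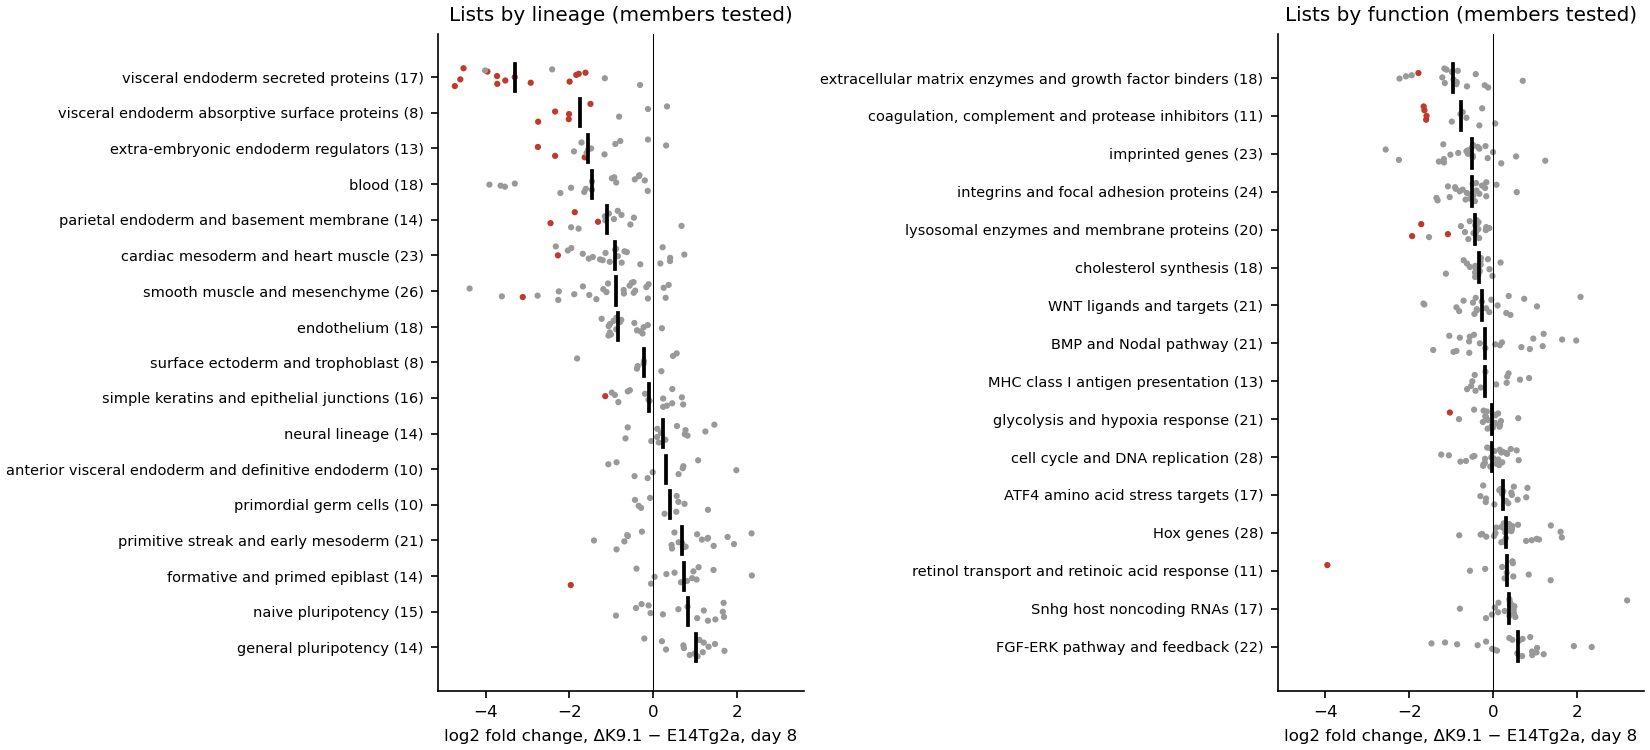
Each point is 1 tested member of a list, with its day 8 log2 fold change of ΔK9.1 minus E14Tg2a on the x axis and the list on the y axis, and black bars are medians. Red points are called lower, no member of any list was called higher, and medians run from -3.30 for secreted proteins of visceral endoderm to 1.02 for general pluripotency genes.

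The remaining lists held few calls. *Car4* was the 1 called gene, lower, of 14 listed for the formative and primed epiblast (median 0.74; with the block *Etv4* was called higher too, at 1.04, 0.0228 against 0.154 without), *Krt18* of 16 for keratins and junctions (-0.099), *Rbp4* of 11 for retinol transport and response (0.33), and *Mmp14* of 18 for matrix enzymes and growth factor binders (-0.96). Coagulation, complement and protease inhibitors had 4 of 11 called lower (-0.78). No gene was called among those of neural lineage (median 0.24), surface ectoderm and trophoblast (-0.22), primordial germ cells (0.41), integrins and focal adhesion (-0.51), Hox genes (0.32), Snhg host RNAs (0.39), imprinted genes (-0.51), cell cycle and replication (-0.017), cholesterol synthesis (-0.34), ATF4 targets (0.24), MHC class I presentation (-0.18), WNT (-0.27) or BMP and Nodal (-0.18). With the block 7 matrix enzymes were called lower, the BMP and Nodal list had 4 higher and the integrin list 3 lower genes, the Hox list had 3 higher, WNT 2 lower and 1 higher, and the imprinted list 1 in each direction. In addition 1 gene was called higher among neural and Snhg genes each, and lower among surface ectoderm, cell cycle and cholesterol genes each. Germ cell, ATF4 and MHC genes had none. At an unadjusted p under 0.05, held by 18.5% of all genes, stood 9 of 21 BMP and Nodal, 10 of 24 integrin, 7 of 17 Snhg, 8 of 23 imprinted, 6 of 21 WNT, 6 of 28 cell cycle, 5 of 28 Hox, 4 of 18 cholesterol, 3 of 10 germ cell, 2 of 14 neural, 1 of 8 surface ectoderm, 1 of 13 MHC and 0 of 17 ATF4 genes. Members of these lists that passed only with the block were, lower, *Cd44* (adjusted p = 0.019, unblocked 0.084), *Plac1* (0.0269, unblocked 0.257), *Plagl1* (0.0372, unblocked 0.185), *Cdkn2b* (0.0358, unblocked 0.279), *Wnt2* (0.0261, unblocked 0.17) and *Fdft1*, which lies in the chromosome 14 segment (0.006, unblocked 0.0827). In the higher direction they included *Zic2* (0.0338, unblocked 0.212), *Hoxb9* (0.0265, unblocked 0.178) and *Lefty2* (0.0344, unblocked 0.084). The same held for *Hoxb1*, given below, and for *Snhg9* and *Lefty1*, whose values are given above. These are members named by rule, not all that passed. In 22 of the 24 integrin and focal adhesion genes the change was below 0. Of the Hox genes, *Hoxb1* had 2.82, 1.91 and 3.46 TPM against 18.5, 7.65 and 7.95 TPM (1.64, adjusted p = 0.0663, 0.0112 with the block). The imprinted RNA *H19* ranged from 1757 to 4734 TPM in the wild type and from 115 to 1535 TPM in the clone (adjusted p = 0.205).

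A stretch of chromosome 14 from 50 to 80 Mb, known from earlier results of these data, held 19 of the 107 lower genes (17.8%). Of 236 genes tested there 8.05% were called lower, against 0.619% of the genes elsewhere, and 222 had a change below 0. The 19 had changes from -1.78 to -1.02, and span unrelated functions: *Itm2b*, a membrane protein (77.7, 151 and 113 TPM against 26.9, 38.7 and 30.4 TPM, -1.77), *Sucla2*, a subunit of succinate-CoA ligase (-1.10), *Dad1*, of the oligosaccharyltransferase (-1.17), and *Polr3d*, of RNA polymerase III (-1.02). None of the 19 kept its call in all 6 fits. The endoderm and lysosomal genes named above, other than *Gata4* and *Ctsb*, lie elsewhere. The matrix enzyme *Mmp14*, of the heart, muscle and mesenchyme group, lies within the stretch. *Tdh* and *Trav5-2*, called higher, lie within the stretch. The number of gene copies in the clone was not tested.

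On day 0 the clone differed from E14Tg2a in 127 lower (0.889%) and 192 higher genes (1.34%) of 14286. Of the 107 genes lower on day 8, 20 were also lower on day 0 at an adjusted p under 0.05, 14 of them in the chromosome 14 stretch, and 2 were higher. These 20 and 2 needed no fold change above 1, unlike the 127 and 192, whose shares are therefore no background for them. The share of all genes at the looser threshold was not computed. The lower genes of the stretch had a median of -0.74 on day 0 and -1.17 on day 8. The 88 elsewhere had -0.30 and -1.85. Without day 0 replicate 1 of E14Tg2a, the library with 127 TPM of endoderm regulators, the day 0 counts were 131 lower and 341 higher. Of the 107 genes 17 were then lower on day 0 at the looser threshold, 15 of them in the stretch, and 5 higher. The day 0 medians were -0.83 in the stretch and 0.00096 elsewhere. *Sucla2* had 83.9 ± 9.34 TPM in E14Tg2a and 37.2 ± 3.05 TPM in ΔK9.1 on day 0, and 90.8 ± 16.1 and 41.98 ± 8.27 TPM on day 8 (SD, n = 3 each). *Apoa1* was below 1 TPM in both lines on day 0, and *Rbp4* had 3.86 ± 0.407 and 5.62 ± 1.35 TPM.

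The change of the difference from day 0 to day 8 was tested in 1 fit of the 18 libraries of both days. It passed at an adjusted p under 0.05 for 222 of 14446 genes (1.54%), for 35 of the 107 lower genes and for 3 of the 6 higher ones (*Sall1*, *Tdh* and *Trav5-2*). The called genes were chosen for their day 8 difference, which is part of this contrast, so these shares are a description. The fit had no replicate block and pooled the spread of both days, although libraries differed more on day 8. Its p-values carry both limits. All 35 lie outside the chromosome 14 stretch. Without day 0 replicate 1 of E14Tg2a the counts were 489 of all genes, 59 of the lower genes, again with none in the stretch and with 34 of the 35 among them, and the same number, 3, of the higher ones. *Apoc2* had an interaction of -5.16 on the log2 scale (adjusted p = 1.46e-05), *Rbp4* of -4.39 (5.34e-05), *Apob* of -3.44 (0.000254) and *Apoa1* of -3.68 (0.000703). For *Lama1* (-2.08, 0.171), *Dab2* (-0.65, 0.813) and *Cubn* (-0.48, 0.844) it did not pass, and in E14Tg2a on day 0 *Dab2* ran from 2.67 to 58.2 TPM and *Lama1* from 10.2 to 80.04 TPM. Without that library the interaction was -3.02 for *Lama1* (adjusted p = 0.00415), -1.90 for *Dab2* (0.231) and -1.47 for *Cubn* (0.311).

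**Figure D4:**
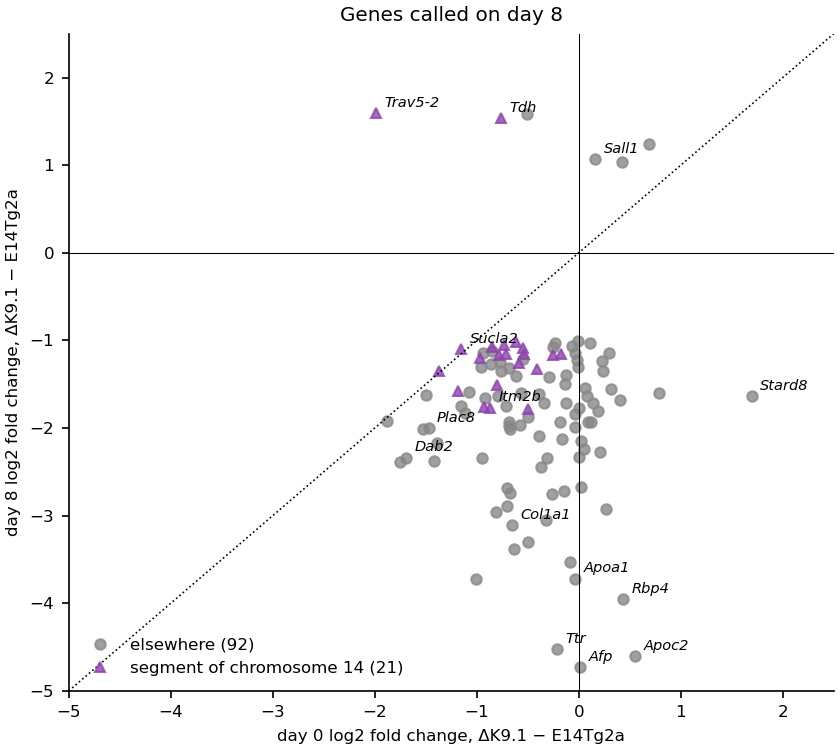
Each point is a gene called on day 8, with its log2 fold change of ΔK9.1 minus E14Tg2a on day 0 (x axis) and on day 8 (y axis), and the dotted line marks equal values. Triangles, the 21 genes of the chromosome 14 stretch, lie below 0 on both days with 2 exceptions (*Tdh* and *Trav5-2*), while *Apoc2*, *Rbp4*, *Apoa1*, *Afp* and *Ttr* lie between -0.21 and 0.55 on day 0 and at -3.72 or lower on day 8.

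Over the 4 days sampled, mean levels of *Apoa1*, *Rbp4*, *Hnf4a*, *Lama1* and *Dab2* in E14Tg2a were lower on day 6 than on days 4 and 8, and from day 4 on their means in ΔK9.1 were below those of E14Tg2a. Days 4 and 6 are given as values, with no test, and day 6 has libraries of replicates 2 and 3 only. *Apoa1* had 60.4 ± 56.7 TPM on day 4, 8.65 ± 9.96 TPM on day 6 and 24.8 ± 10.9 TPM on day 8 in E14Tg2a (SD, n = 3, 2 and 3), against 2.24 ± 3.07, 0.523 ± 0.631 and 0.877 ± 0.356 TPM in ΔK9.1. On day 4 the wild-type libraries spread from 17.3 to 125 TPM. *Hnf4a* in ΔK9.1 went from 2.27 ± 1.27 TPM on day 0 to 0.932 ± 1.35 TPM on day 8, and in E14Tg2a from 2.82 ± 1.25 to 10.3 ± 1.65 TPM. *Col1a1* was under 4 TPM in all libraries of days 0 and 4 and reached 17.5 ± 9.85 TPM in E14Tg2a and 1.55 ± 0.526 TPM in ΔK9.1 on day 6. *Nanog* had 193 ± 12.5 and 200.4 ± 15.1 TPM on day 4, 131 ± 13.1 and 167 ± 30.6 TPM on day 6, and 26.7 ± 6.84 and 98.9 ± 68.2 TPM on day 8 in E14Tg2a and ΔK9.1. *Sall1* had 33.8 ± 0.189 and 38.7 ± 1.27 TPM on day 6, and 12.3 ± 1.68 and 26.6 ± 0.531 TPM on day 8.

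**Figure D5:**
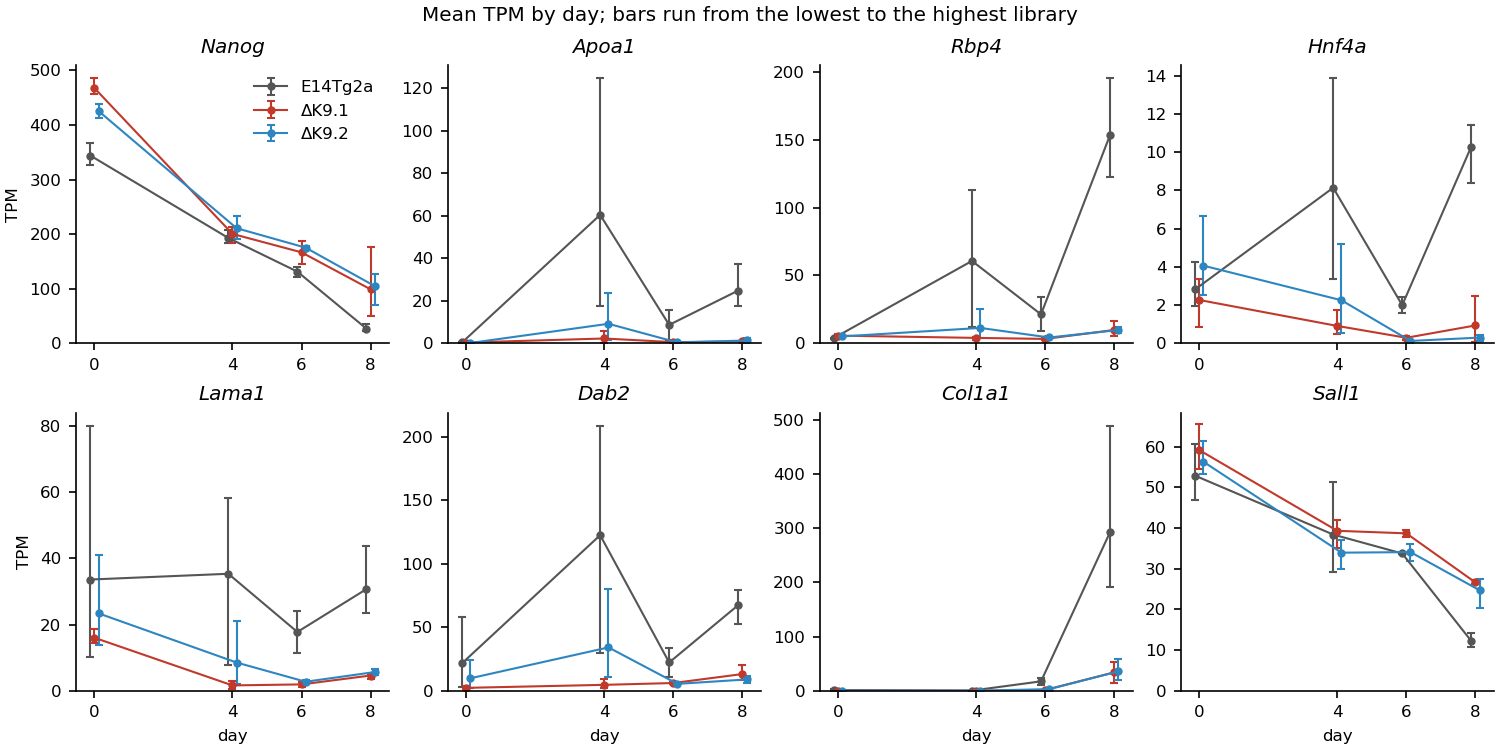
Mean TPM (y axis) of 8 genes by day of differentiation (x axis) in E14Tg2a, ΔK9.1 and ΔK9.2, with bars from the lowest to the highest library (n = 3, and 2 on day 6). *Apoa1*, *Rbp4*, *Hnf4a*, *Lama1* and *Dab2* have higher means in E14Tg2a than in ΔK9.1 on days 4, 6 and 8, *Col1a1* appears late and more in E14Tg2a, and *Nanog* and *Sall1* end higher in ΔK9.1.

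ΔK9.2 was compared with the same E14Tg2a libraries, so its values are set beside those of ΔK9.1 without a test of likeness. *Apoc2* had 0.855, 0.607 and 0.335 TPM in ΔK9.2, *Rbp4* 9.61, 11.8 and 7.80 TPM and *Apoa1* 2.62, 0.575 and 0.703 TPM. Of all genes, 1.46% were called lower and 0.118% higher in ΔK9.2. All 107 genes had a log2 fold change below 0 in ΔK9.2 and 92 of them were called, while 5 of the 6 were above 0 and 1 was called. *Sall1* was at 0.95 (adjusted p = 0.0232) and *Cecr2* at 0.93 (0.0343), both under the fold threshold. A direct test of ΔK9.1 against ΔK9.2 with limma called no gene at an adjusted p under 0.05, and 333 genes (2.31%) had an unadjusted p under 0.05. With the replicate block, by which the clones are paired, no gene was called either (smallest adjusted p 0.375), and 973 genes (6.74%) had an unadjusted p under 0.05. Of the 113 called genes 13 had an unadjusted p under 0.05 with the block. Without the block, of the 113 called genes 9 were among the 333: *Kif1a*, *Tmem88*, *Gm12276*, *Plac8*, *Xlr3a*, *Cited1*, *Hist1h2ah*, *Car4* and *Trav5-2*. The 113 were chosen for their ΔK9.1 values, which enter this contrast, so both counts are a description. *Kif1a*, a neuronal kinesin motor, had 19.5, 24.4 and 26.4 TPM in E14Tg2a, 5.86, 4.42 and 9.02 TPM in ΔK9.1 and 16.2, 15.8 and 23.3 TPM in ΔK9.2 (unadjusted p = 0.000219 between the clones). *Gm12276* was listed at 0 in all 3 ΔK9.2 libraries. In neither fit did a gene differ between the clones past the threshold, which does not show that the clones were alike.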

How the data were processed

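Poly-A selected, stranded paired-end RNA-seq libraries were aligned to mm10 with STAR and quantified with RSEM by the authors, who left out outliers found by PCA. Tool versions and the gene annotation are not given in the sources used here. Gene levels are the RSEM TPM of the authors, used as deposited. Beside them the deposited table holds log2 fold changes from the authors' DESeq2 tests, of the clones on day 0 and of each day against day 0 within a line, which were not used. The same holds for the FDR, the adjusted p-values of those tests by the authors as deposited. TPM hold no depth, and the precision was taken from replicates.

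The 14446 of 16336 genes whose mean reached 1 TPM in either group were tested as log2(TPM + 1) with limma 3.58.1 in R 4.3.3 (empirical Bayes with an intensity trend, Benjamini-Hochberg adjustment). The fit held the 9 libraries of day 8, not all 33, because libraries differed more on day 8 (median SD 0.25 in ΔK9.1 and 0.22 in E14Tg2a) than on day 0 (0.14 and 0.18). A gene was called at an adjusted p under 0.05 and an absolute log2 fold change above 1, the study's EB thresholds. With 3 against 3 libraries an exact permutation test of 1 gene cannot go below p = 0.1. The p-values measure the spread between assays within lines, with that of ΔK9.2 pooled in, and not the spread between clones. Day 0 was fitted alike on its 9 libraries, and the interaction on 18.

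The lines were differentiated in parallel in 3 assays per the study's supplement, and the replicate number marks pairs: deviations from group means correlated at 0.19, 0.39 and 0.33 between ΔK9.1 and E14Tg2a, at 0.28, 0.38 and 0.42 between the clones, and at 0.34, 0.22 and 0.22 between ΔK9.2 and E14Tg2a. The blocked fit is given for counts of lists and for genes named by rule where it changed a call.

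Named by rule were the 15 lowest and 12 highest changes among called genes without overlap between groups. Where too few were called, uncalled genes without overlap and with an unadjusted p under 0.05 filled the number. Added were *Nanog*, and in each list the called members (at most 6) or else up to 2 with the largest change. Other genes named, and the groups of called genes by function, were chosen after their values were seen. The 33 lists (17 of lineages, 16 of functions, 549 of 610 symbols tested), like the comparison itself, were chosen with earlier results of these data known. Genes were placed on mm10 with GENCODE M21 (98.4% of symbols). Scripts were tested on simulated data, and figures were drawn with Python 3.11.15 and matplotlib 3.10.9. Alternatives were all 33 libraries, only the 6 compared, the replicate block, a pseudocount of 0.1, a minimum of 5 TPM or none, rescaled libraries, no intensity trend and each library left out. The alternatives for day 0 and for ΔK9.2, the interaction and the count outside chromosome 14 from 50 to 80 Mb, and the fits without day 0 replicate 1 of E14Tg2a, were added after seeing the data.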

Additional observations from a re-analysis of the deposited data

Results flagged for a closer look

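Of the named genes, 5 lay in opposite directions on the 2 days in every library, all ΔK9.1 libraries lying on one side of all E14Tg2a libraries on day 0 and on the other side on day 8. Many of the named genes were picked for a day 8 difference without overlap, which is part of this pattern. How many of all genes show it was not counted, so the 5 are a description. *Rbp4* was at 0.43 on day 0 (adjusted p = 0.121) and -3.95 on day 8, with an interaction of adjusted p = 5.34e-05 in limma. *F2* was at 0.79 (0.0671) and -1.60 (interaction adjusted p = 0.00595). *Tdh* had 258 ± 25.6 TPM in E14Tg2a and 152 ± 11.3 TPM in ΔK9.1 on day 0 (SD, n = 3 each), a log2 fold change of -0.76 (adjusted p = 0.00569), against 1.54 on day 8 (interaction adjusted p = 0.000785). *Trav5-2* was at -1.99 (0.0191) and 1.60 (interaction 0.00239). *L1td1*, an RNA-binding protein of ES cells, was at -0.39 (0.0121) and 1.70 (adjusted p on day 8 = 0.132, 0.0395 with the block), and its interaction did not pass, at an adjusted p of 0.0614. In all, 38 of the genes called on day 8 had a difference that changed between day 0 and day 8 by this test, for genes that were chosen on their day 8 difference. Without day 0 replicate 1 of E14Tg2a, which had the highest endoderm regulators of that day, the day 0 change was 0.45 for *Rbp4* (adjusted p = 0.145), 1.06 for *F2* (0.0108), -0.83 for *Tdh* (0.00611), -2.11 for *Trav5-2* (0.0274) and -0.38 for *L1td1* (0.0204), so that *F2* passed an adjusted p of 0.05 on day 0 only then. The interaction without it had an adjusted p of 0.000204 for *Rbp4*, 0.00141 for *F2*, 0.00122 for *Tdh*, 0.00216 for *Trav5-2* and 0.0675 for *L1td1*.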

How the results depend on the processing

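The counts of called genes depended on the fit. With all 33 libraries they were 405 lower and 116 higher (97 and 6 of the genes reported among them), with only the 6 libraries compared 44 and 1, and with the replicate block 367 and 83. A pseudocount of 0.1 gave 83 and 7, a minimum of 5 TPM 78 and 4, no minimum 66 and 4, rescaled libraries 121 and 8, and no intensity trend 98 and 10. Without 1 library each, they ranged from 23 to 148 and from 0 to 28. Outside the chromosome 14 stretch 88 genes were lower. The day 0 count of 319 became 550 with a pseudocount of 0.1 and 472 without day 0 replicate 1 of E14Tg2a, and the 222 genes of the interaction became 489 without that library. *Nanog*, at 1.66, passed the threshold with all 33 libraries (1.66), with the replicate block (1.66) and without replicate 2 of ΔK9.1 (2.05). Its change ranged from 1.14 to 2.05 without 1 library each. Of 1153 values of named genes under the alternatives, 926 kept their direction and their side of the threshold, 171 lost and 55 gained the call, and 1 reversed: *Psmb8*, not called, at -0.016 without E14Tg2a replicate 2 and up to 1.57 without ΔK9.1 replicate 2. Of the genes named by rule the block changed the call of 26, each given above with its blocked value. Of 462 medians of lists, 17 moved by more than the spread between replicates. Depth could not be judged from TPM.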
